A study of Homo sapiens with 6 samples.

Results

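Replication-dependent histone genes encode the core histones H2A, H2B, H3 and H4 and the linker histone H1, which package newly copied DNA. The genes described here are those of a fixed list of 49, grouped by histone class and by chromosome cluster. Of the 49, 45 were found among the 29816 genes of the deposited expression table, and H1-3, H3C4, H3C11 and H4C13 were not analysed here. The 45 comprised 3 H1, 11 H2A, 15 H2B, 6 H3 and 10 H4 genes. The large cluster at 6p22 held 39 of them, and the small cluster at 1q21 held 6, namely H2AC18, H2AC20, H2BC18, H2BC21, H4C14 and H4C15. All 45 were kept, low ones included.

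KYSE-150, the cell line used, is established and derives from a human squamous cell carcinoma of the esophagus. One group was transfected with si-NC, a negative control small interfering RNA, and the other with si-circTMEM45A, a small interfering RNA named for circTMEM45A, a circular RNA whose name points to the TMEM45A gene. Each group had 3 libraries, which the labels number 1 to 3. The sources used here give neither dose nor time after transfection. They also do not say whether libraries of a group had cultures of their own, so each p-value rests on a spread that may be technical. All cells came from 1 line and the RNA from whole cultures, so a change in the number of cells in S phase and a change in histone RNA per cell cannot be told apart.

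Most histone genes of these clusters are transcribed during S phase, when NPAT and class-specific factors such as POU2F1 act at their promoters. Their main mRNAs lack a poly(A) tail and end just after a short stem-loop that the protein SLBP binds, and U7 snRNP directs that cut. Several of the genes also yield longer transcripts that pass the stem-loop and end at an ordinary poly(A) signal, in particular in cells that have left the cell cycle. The libraries were made from RNA captured with oligo(dT) beads, per the labels' protocols, so they report RNA that such beads retain and not the total histone mRNA.

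Libraries held 16636248 to 17323964 reads assigned to genes. FPKM, fragments per kilobase of gene model scaled to library size, is the unit of every level below. A gene was tested where 3 or more of the 6 libraries had an FPKM of 1 or higher. Changes are differences of log2(FPKM + 1) with their standard errors, a scale on which low genes change less than their FPKM does. A gene is said to be called where the adjusted p of limma, taken over all 12676 tested genes, was under 0.05. Of the squamous epithelial markers, 8 of 10 reached 1 FPKM in mean level (KRT6A and SOX2 did not), with sums of 762 to 803 with si-NC and 633 to 675 with si-circTMEM45A. Of 6 fibroblast markers 1 reached 1 FPKM, and none of 5 immune or 4 endothelial markers did. TMEM45A, the host gene, was at 3.12 ± 0.19 FPKM (SD, n = 3) in the si-NC group and at 2.12 ± 0.22 in the other, a change of -0.40 ± 0.08 with an adjusted p of 0.0167. That call held only when the library left out was replicate 2 of si-NC or replicate 1 of si-circTMEM45A (otherwise adjusted p 0.0505 to 0.0587). The circular RNA itself is not measured in a gene table.

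The 3′ ends of the annotated transcripts bear on which histone RNAs can be captured, so representative ones are shown first. In the GENCODE 29 transcripts (GRCh38), 23 of the 45 genes contain the 16-base stem-loop, and 16 have an AATAAA or ATTAAA word in the last 50 bases of a transcript, after the stem-loop where there is one. Both features occur in 15 genes, though not always in the same transcript. A model that ends at the stop codon, such as that of H2BC12, can show neither. Of all 206694 annotated transcripts, 113 (0.0547%) hold such a stem-loop and 64649 (31.3%) such a poly(A) signal. In the stem-loops below, the loop and its 2 arms are in capitals and 5 bases of flank on each side in lower case. They come from genes of each core class and from both clusters.
H2BC21: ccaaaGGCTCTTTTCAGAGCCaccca
H2BC5: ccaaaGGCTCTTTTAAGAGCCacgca
H2AC6: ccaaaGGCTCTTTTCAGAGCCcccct
H2AC11: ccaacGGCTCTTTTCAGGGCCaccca
H3C10: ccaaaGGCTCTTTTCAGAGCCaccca
H4C9: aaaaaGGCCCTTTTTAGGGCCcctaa

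In H2BC21 the stem-loop occupies bases 450 to 465 of a transcript of 2194 bases, so 1729 bases follow it. In H2AC11 it lies at bases 474 to 489 of 2250, and in H3C10 at bases 453 to 468 of 1237. The last 30 bases of these long transcripts are shown next, with the poly(A) signal in capitals, together with the longer H2BC5 transcript of 789 bases. No stem-loop was found in that H2BC5 transcript. The H2BC5 stem-loop shown above lies in a transcript of 496 bases.
H2BC21: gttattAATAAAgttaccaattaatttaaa
H2AC11: aattcatAATAAAgtgaaatgttcaagttc
H3C10: atgactaAATAAAatctgtataatccccac
H2BC5: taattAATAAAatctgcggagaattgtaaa

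In the 6 libraries, 21 of the 45 histone genes passed the filter and 10 of them were called higher with si-circTMEM45A: H2BC12, H2BC5, H2BC21, H2BC4, H2BC11, H2AC6, H2AC11, H1-2, H3C10 and H4C9. By limma 0 were called lower, 0 also had a lower level at an unadjusted p under 0.05 (13 a higher one), and limma voom on recovered reads called 11 higher and 0 lower. Among all tested genes, the main limma fit called 18.8% in either direction, 11.1% higher and 7.64% lower. Voom called 1958 of the same 12676 genes higher and 1411 lower. No share of all genes is given here for an unadjusted p. The change was positive in 19 of the 21 and negative in H2BC13 and H3C2. The median change of the 21 was 0.40, against 0.03 for all tested genes, of which 4.47% lay at or above 0.40. Passing the filter is not independent of the change for H2BC15, which reached 1 FPKM only with si-circTMEM45A. H2BC15 is nonetheless among the 19 positive changes and in the median of 0.40. These counts also leave out the low members. Over all 45 genes with no filter, 6 were called higher (2.44% of all genes were) and 0 lower (1.76%), and the median change was 0.19. Without a test, all 3 si-circTMEM45A libraries lay above all 3 si-NC libraries in 14 of 45 histone genes (12.8% of all genes) and below them in 0. The share of all genes that lay below is not given here. Of the 14 histone genes, 2 were below the filter. Among tested genes of the whole table the shares were 23.3% above and 16% below, and these do not cover the histone genes below the filter.

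**Figure D1:**
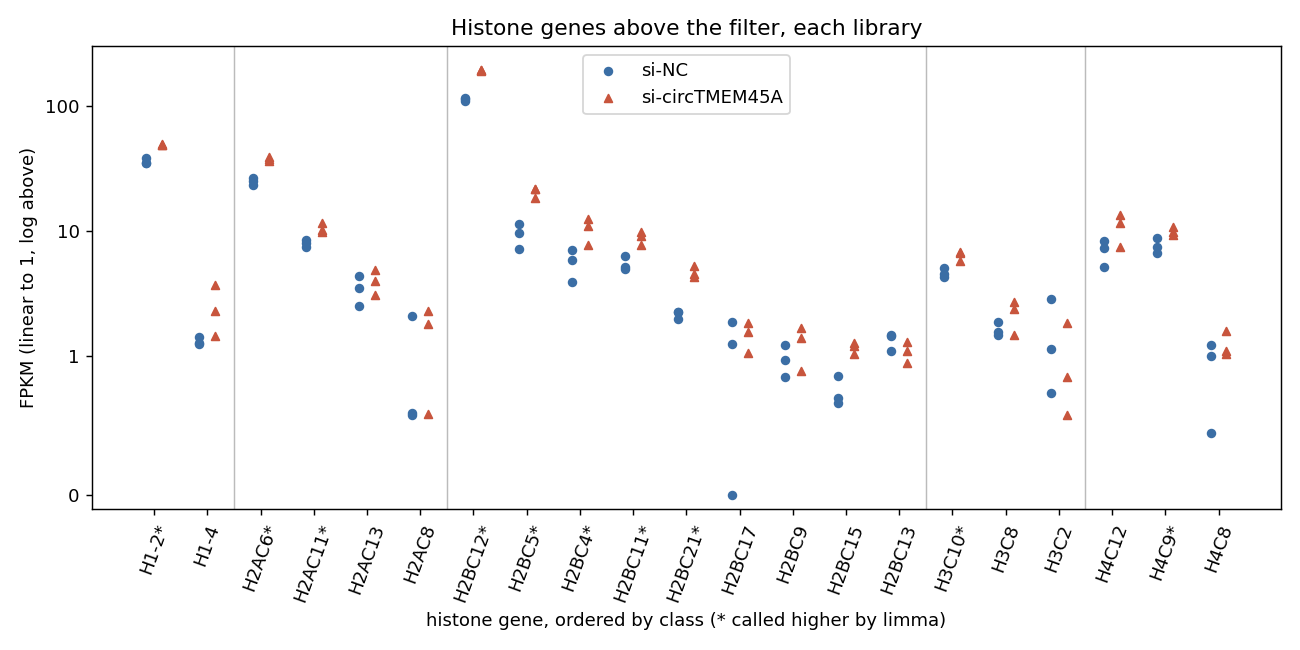
FPKM of each tested histone gene in each library (vertical axis linear up to 1 and logarithmic above it; circles si-NC, triangles si-circTMEM45A), ordered by class, with an asterisk where limma called the gene higher. H2BC12, at 109 to 115 FPKM with si-NC and 189 to 193 with si-circTMEM45A, lies above every other gene.

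H2B, which pairs with H2A in the nucleosome, was the class with the most calls, 5 of 9 tested genes. The gene of highest level was H2BC12 (ENSG00000197903, chromosome 6, bases 27146418 to 27146798, minus strand). It was at 112, 115 and 109 FPKM in si-NC replicates 1 to 3 and at 189, 193 and 191 with si-circTMEM45A, so the groups were far apart compared with their spread. Its change was 0.77 ± 0.03 (adjusted p = 0.000251). The H2BC12 model covers 381 bases and ends at the stop codon, so reads in any longer 3′ end are not counted. Of its 50-base words, 74.1% also occur in other annotated genes, most of them in one that GENCODE 29 names H2BFS, so reads may have been shared with near-identical copies. H2BC12L, a copy with a row of its own, held 1, 0 and 0 reads with si-NC and 1 in each si-circTMEM45A library.

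H2BC5 (ENSG00000158373, chromosome 6, 26158146 to 26171349, plus strand) had the largest change of the tested histone genes. It was at 9.65, 7.18 and 11.3 FPKM with si-NC and at 21.5, 18.2 and 21.5 with si-circTMEM45A. The change was 1.06 ± 0.14 (adjusted p = 0.00454), and by size it ranked 19 among the 12676 tested genes. H2BC21 (ENSG00000184678), the only tested gene of the 1q21 cluster, lies on chromosome 1 at bases 149884459 to 149886652, minus strand. It was at 1.97, 2.25 and 2.23 FPKM with si-NC and at 5.20, 4.29 and 4.53 with si-circTMEM45A, with no overlap. The change was 0.85 ± 0.08 (adjusted p = 0.00157). H2BC11 (ENSG00000124635) went from 6.29, 5.19 and 4.97 FPKM to 9.06, 9.86 and 7.66, a change of 0.60 ± 0.11 (adjusted p = 0.0101). In these 3 genes each si-circTMEM45A library exceeded each si-NC library.

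H2BC4 (ENSG00000180596) was at 5.89, 3.89 and 7.0 FPKM with si-NC and at 12.3, 10.9 and 7.68 with si-circTMEM45A. The change was 0.78 ± 0.21 with an adjusted p of 0.0428, and the lowest si-circTMEM45A library was close to the highest si-NC library. Leaving out replicate 1 or 2 of either group ended the call (adjusted p 0.086 to 0.113). H2BC15, whose model of 5477 bases overlaps that of H2AC16, was at 0.659, 0.856 and 0.70 FPKM with si-NC and at 1.2, 1.28 and 1.04 with si-circTMEM45A. It was not called (0.32 ± 0.12, adjusted p = 0.106), although its groups did not overlap. With limma voom on the recovered reads at a mean of at least 10 reads, an alternative added after the values were seen, its change was 0.67 ± 0.18 (adjusted p = 0.00954). H2BC15 was called in 3 of 18 alternatives. The others were planned, namely limma without a variance trend and voom on recovered reads with the main filter.

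The other tested H2B genes were not called. H2BC17 was at 1.86, 0 and 1.24 FPKM with si-NC and at 1.83, 1.56 and 1.06 with si-circTMEM45A (0.41 ± 0.37, adjusted p = 0.486), and without si-NC replicate 2 its change was -0.04. H2BC9 was at 1.24, 0.846 and 0.974 against 1.67, 0.892 and 1.40 FPKM (0.19 ± 0.16, adjusted p = 0.443). H2BC13 was at 1.46, 1.48 and 1.09 against 0.954, 1.09 and 1.30 FPKM (-0.14 ± 0.12, adjusted p = 0.456). All 3 stood near 1 FPKM with overlapping groups.

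Among the H2A genes, 2 of 4 tested were called. H2AC6 (ENSG00000180573, chromosome 6, 26124145 to 26139116, plus strand) was at 24.8, 23.1 and 26.2 FPKM with si-NC and at 38.7, 35.8 and 37.7 with si-circTMEM45A. The change was 0.58 ± 0.05 (adjusted p = 0.00146). H2AC11 (ENSG00000196787) was at 8.39, 8.01 and 7.42 FPKM with si-NC and at 11.6, 10.2 and 9.88 with si-circTMEM45A, a change of 0.37 ± 0.07 (adjusted p = 0.0138). Neither gene's groups overlapped. H2AC13, with 62.3% of its 50-base words shared with other genes, was at 4.35, 2.51 and 3.52 against 4.86, 4.01 and 3.10 FPKM (0.17 ± 0.18, adjusted p = 0.559). H2AC8 was at 2.09, 0.590 and 0.580 against 2.29, 0.582 and 1.81 FPKM (0.30 ± 0.35, adjusted p = 0.587), and the spread inside each group was nearly as wide as the range over all 6 libraries.

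The linker histone H1-2 (ENSG00000187837, chromosome 6, 26055787 to 26056428, minus strand) was at 35.1, 35.1 and 38.3 FPKM with si-NC and at 48.1, 48.4 and 49.5 with si-circTMEM45A. Its change was 0.42 ± 0.04 (adjusted p = 0.00198), and the groups did not overlap. H1-4 was at 1.41, 1.28 and 1.25 FPKM with si-NC and at 3.70, 2.28 and 1.45 with si-circTMEM45A. It was not called (0.54 ± 0.22, adjusted p = 0.129), but was called without si-circTMEM45A replicate 3, its lowest library of that group (adjusted p = 0.0388). H1-5 held 0 to 5 reads in each library.

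In the H3 class, H3C10 (ENSG00000278828) was at 5.07, 4.28 and 4.48 FPKM with si-NC and at 6.77, 5.75 and 6.63 with si-circTMEM45A. Its change was 0.40 ± 0.08 (adjusted p = 0.0159), with no overlap, and the call ended when si-NC replicate 2, si-NC replicate 3 or si-circTMEM45A replicate 3 was left out (adjusted p 0.0508 to 0.0575). H3C8 was at 1.55, 1.47 and 1.88 against 2.73, 2.38 and 1.48 FPKM (0.26 ± 0.16, adjusted p = 0.295). H3C2 was at 2.88, 0.731 and 1.15 against 0.849, 0.577 and 1.83 FPKM (-0.27 ± 0.33, adjusted p = 0.617). Its highest value was in si-NC replicate 1, and without that library its change was 0.07.

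In the H4 class, H4C9 (ENSG00000276180) was at 7.45, 6.60 and 8.71 FPKM with si-NC and at 9.26, 10.7 and 9.86 with si-circTMEM45A. Its change was 0.35 ± 0.09 with an adjusted p of 0.0411. That call was lost without any 1 library other than si-NC replicate 3 (adjusted p 0.0543 to 0.115) and under TPM, median-of-ratios and quantile scaling. H4C12 was at 8.35, 7.32 and 5.11 against 13.4, 7.41 and 11.7 FPKM (0.56 ± 0.22, adjusted p = 0.125), and all of its 50-base words occur in other genes (100% shared). Without si-circTMEM45A replicate 2, its lowest library of that group, it was called (adjusted p = 0.0411). H4C8 was at 1.23, 0.445 and 1.01 against 1.59, 1.04 and 1.09 FPKM (0.26 ± 0.19, adjusted p = 0.392).

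**Figure D2:**
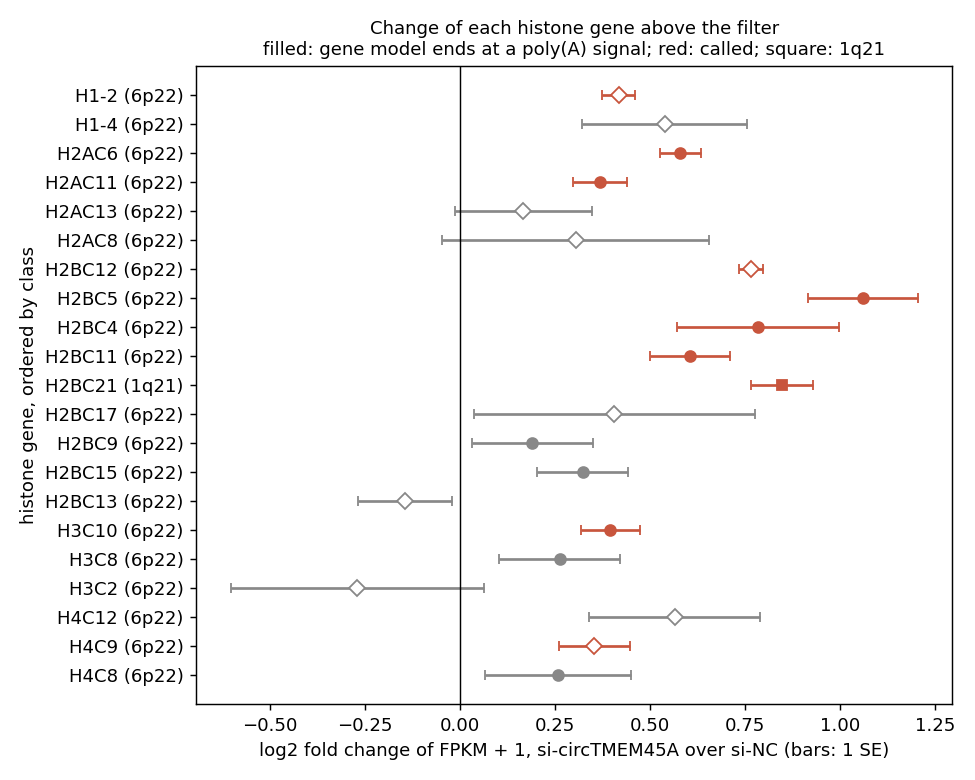
Difference of log2(FPKM + 1) between si-circTMEM45A and si-NC for the 21 tested histone genes, with bars of 1 standard error; red marks genes called by limma, filled symbols genes with an annotated poly(A) signal, squares the 1q21 gene and circles or diamonds 6p22 genes. Values run from -0.27 for H3C2 to 1.06 for H2BC5, and 19 of 21 lie above 0.

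By class, the median change of tested genes was 0.60 for H2B (9 genes), 0.48 for H1 (2), 0.35 for H4 (3), 0.34 for H2A (4) and 0.26 for H3 (3). These medians rest on few genes, and no test of a difference between classes was made. Summed over all members of a class, low ones included, H2B was at 143, 138 and 139 FPKM with si-NC and at 245, 243 and 240 with si-circTMEM45A. Without H2BC12 the H2B sum was 27.8 ± 4.42 FPKM (SD, n = 3) against 51.4 ± 3.57, a ratio of 1.85. The H2A sum went from 40.5 ± 5.29 to 55.5 ± 4.03 FPKM, a ratio of 1.37, and the H1 sum from 37.7 ± 1.93 to 51.3 ± 0.67, a ratio of 1.36. In these 3 classes all si-circTMEM45A sums lay above all si-NC sums.

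The H4 sum was 27.2, 15.9 and 16.4 FPKM with si-NC and 28.5, 22.1 and 24.8 with si-circTMEM45A, and the H3 sum was 11.8, 7.44 and 8.61 against 11.1, 10.1 and 11.7. Both overlapped between groups, with si-NC replicate 1 far above the other si-NC libraries. The sum over all 45 genes was 264.9, 233.8 and 242.9 FPKM with si-NC and 396.4, 378.0 and 382.5 with si-circTMEM45A, a ratio of means of 1.56, or 1.44 without H2BC12.

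**Figure D3:**
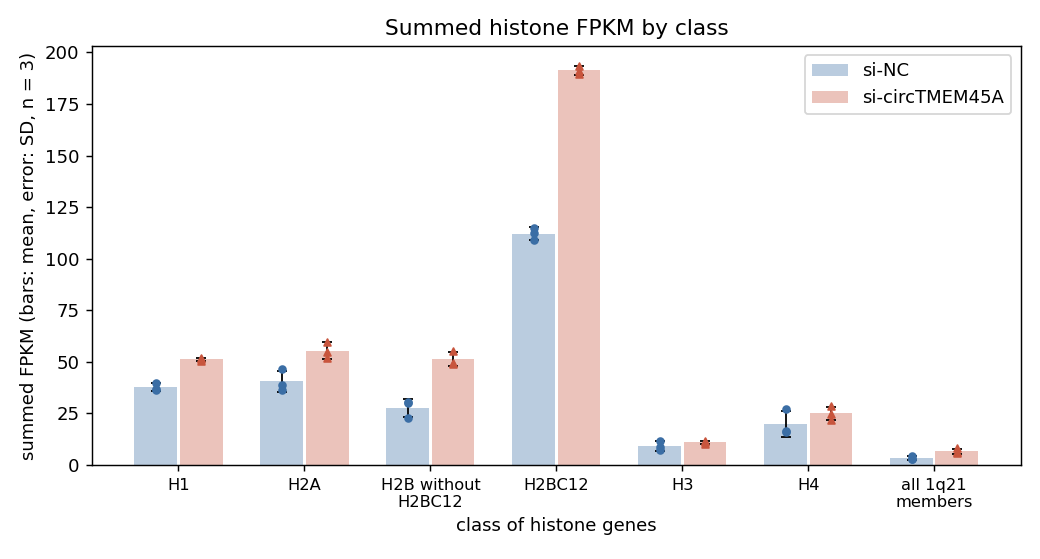
Summed FPKM of the members of each class, with H2BC12 left out of the H2B bar and shown on its own and the 6 1q21 genes as a last group; bars are means, error bars the SD (n = 3) and points the libraries. H2BC12 is at 112 and 191 FPKM in mean, above each other bar of the same group, and the H3 and H4 points of the 2 groups overlap.

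By cluster, 9 of 20 tested 6p22 genes and the 1 tested 1q21 gene were called higher. The median change was 0.38 at 6p22 and 0.85 at 1q21, where it is the value of H2BC21 alone, so the clusters were not compared by a test. Among H2B genes only, the 6p22 median was 0.50 over 8 tested genes, and H2BC21 lay above 7 of those 8, H2BC5 being the exception at 1.06. The sum of the 6 1q21 genes was 4.5, 2.7 and 2.7 FPKM with si-NC and 8.0, 5.8 and 6.2 with si-circTMEM45A, a ratio of means of 2.01. At 6p22 the ratio of summed means was 1.55, or 1.42 without H2BC12. The 1q21 genes made up a small portion of the summed histone FPKM in both groups, and H2BC21 made up most of their mean sum.

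At 6p22 the genes fall into 3 stretches separated by more than 500000 bases. The stretch from H2BC11 to H2AC12 held 5 members, of which 4 were tested and all 4 were called (H2BC11, H2AC11, H4C9 and H2BC12). In the stretch from H3C1 to H4C8, 4 of 10 tested genes were called out of 21 members, and in that from H2BC13 to H2BC17, 1 of 6 tested out of 13 members (H3C10). Median changes of the tested genes were 0.36 in the stretch from H3C1, 0.49 in that from H2BC11 and 0.36 in that from H2BC13. Between and beside the 6p22 histone genes, 44 other genes of the table lie within the span of the cluster, and 17 were tested. Of these, limma called 0 higher (1 at an unadjusted p under 0.05, and 0 by voom) and 3 lower (4 by voom), namely BTN3A2 (6.70 to 5.15 FPKM in mean), BTN3A1 (15.8 to 11.4) and HFE (14.2 to 12.4), and the median change was -0.12. The difference between these neighbours and the histone genes was not tested.

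Histone genes with an annotated poly(A) signal were compared with those without one. Of the 16 with a signal, 11 were tested, 7 were called higher and all 11 changes were positive, with a median of 0.40. They held 1816, 1565 and 1783 reads in all with si-NC and 2978, 2589 and 2666 with si-circTMEM45A. Of the 29 without a signal, 10 were tested and 3 were called higher (H1-2, H2BC12 and H4C9), with a median of 0.38. Of the 10, 8 changes were positive and 2 negative. The 10 held 1429, 1343 and 1415 reads in all with si-NC and 2186, 2131 and 2188 with si-circTMEM45A. The filter was reached by 11 of 16 genes with a signal and 10 of 29 without one, and no difference between these groups of genes was tested. The presence of a word in an annotated transcript does not show which 3′ end the captured RNA had. Its absence does not show that the gene lacks it, since some models are short and may leave out the 3′ end. Those of H1-2 (642 bases), H2BC12 (381) and H4C12 (312), for example, hold neither a signal nor a stem-loop.

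The 24 genes below the filter were low in most libraries, but some passed 1 FPKM in single ones, as H4C3 did in si-NC replicate 1 (2.86 FPKM). The highest group mean among the 24 was 1.22 FPKM. Of the 24, 15 had at most 10 reads in each library and 15 had 0 reads in at least 1 library. Their means were higher with si-circTMEM45A in 12 and lower in 12. Of the 24, 9 were highest in si-NC replicate 1. H4C3 held 21, 0 and 3 reads with si-NC and 2, 2 and 1 with si-circTMEM45A. H4C2 held 19, 0 and 1 against 2, 1 and 0, and H2AC12 held 14, 4 and 1 against 2, 2 and 10. H4C5, given below, was another of the 9. These genes, and H2AC4, H2AC20 and H3C7 with them, are named as examples after their values were seen. H2AC4 held 10, 4 and 0 reads against 1, 0 and 0, H2AC20 at 1q21 held 13, 1 and 0 against 9, 1 and 2, and H3C7 held 12, 2 and 4 against 3, 4 and 9. The 19 low genes without a poly(A) signal summed to 135, 39 and 37 reads with si-NC and to 61, 54 and 61 with si-circTMEM45A. The 5 low genes with a signal summed to 80, 32 and 23 reads against 89, 52 and 66.

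SNORD3A, a U3 small nucleolar RNA without a poly(A) tail, was also highest in si-NC replicate 1. It held 235, 0 and 4 reads with si-NC and 88, 2 and 8 with si-circTMEM45A, so replicate 1 was high in both groups. RN7SL2, the RNA of the signal recognition particle, which is also made without a tail of that kind, did not follow that pattern, at 1955 ± 316 FPKM with si-NC (SD, n = 3) and 1835 ± 470 with si-circTMEM45A (adjusted p = 0.729). The other 4 RNAs of this kind in the table (RNU4-2, RNU4ATAC, SCARNA5 and SCARNA7) held 0 to 6 reads in each library. Of these, RNU4ATAC and SCARNA5 were not highest in si-NC replicate 1, and RNU4-2 and SCARNA7 held 1 read there. Whether carried-over RNA without a tail had a part in the levels of the low histone genes was not tested. Leaving out both libraries numbered 1, an alternative added after the values were seen, 8 of the 21 tested histone genes were called higher and 0 lower. Among all 12676 tested genes, 602 were called higher and 445 lower that way. H2BC4 and H4C9 were the called genes that were lost there.

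**Figure D4:**
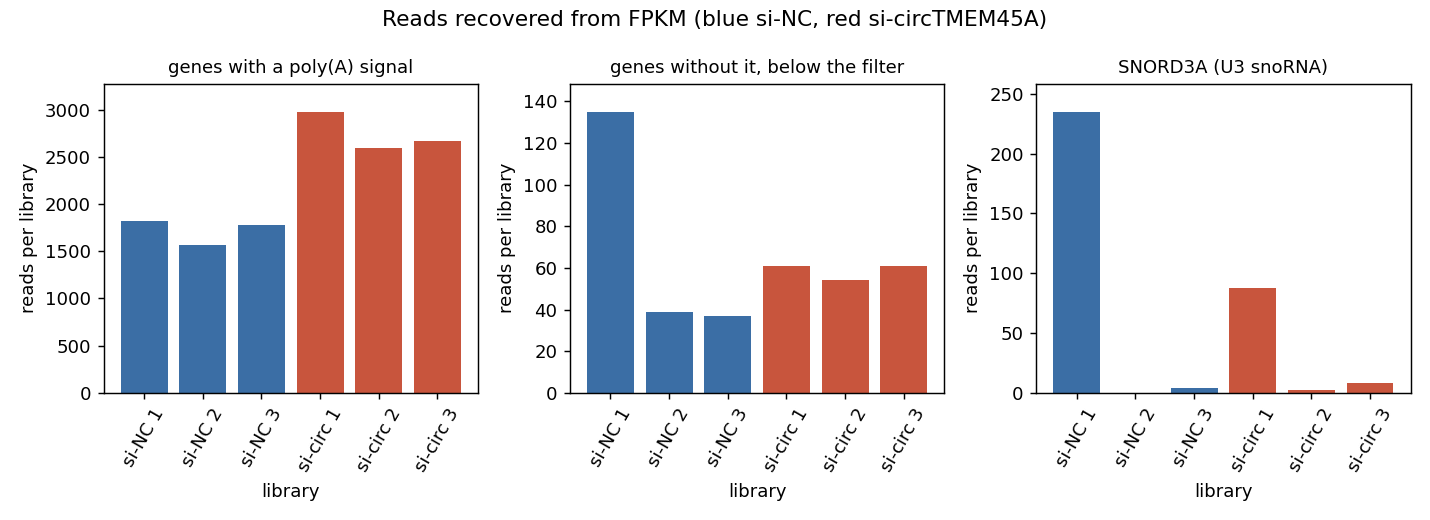
Reads per library in 3 panels, each with its own axis from 0: histone genes with an annotated poly(A) signal, the 19 genes without one that were below the filter, and SNORD3A. The first panel is higher in all 3 si-circTMEM45A libraries (2589 to 2978 reads) than in si-NC (1565 to 1816). In the other panels si-NC replicate 1 is the highest library, at 135 and 235 reads. The 10 tested genes without a signal are not drawn. They held 1343 to 1429 reads with si-NC and 2131 to 2188 with si-circTMEM45A, so the first 2 panels differ in level as well as in the signal.

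Of the low genes, 4 had a mean of at least 10 recovered reads in a group. With limma voom on reads, and a minimum mean of 10 reads per library, 22 histone genes were tested and 12 were called higher and 0 lower (13.9% of all genes tested that way were called higher and 9.65% lower). H2BC18 at 1q21 was at 11, 5 and 6 reads with si-NC and 31, 10 and 31 with si-circTMEM45A, and it was called there (1.53 ± 0.51, adjusted p = 0.0287), although its groups overlapped. It was not called on log2(FPKM + 1) without a filter (adjusted p = 0.264). H2BC7 held 14, 11 and 13 against 24, 24 and 12 reads (adjusted p = 0.359 by voom), and H4C5 held 59, 20 and 13 against 33, 25 and 18 (adjusted p = 0.952 by voom). H4C14 at 1q21 held 8, 7 and 1 against 20, 8 and 11 reads and shares 97.5% of its 50-base words, mostly with H4C15. Its libraries did not overlap on the FPKM scale, but its lowest si-circTMEM45A library and its highest si-NC library both held 8 reads.

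Many H2A and H2B genes face each other across a short shared promoter region. Within 1000 bases, 8 such pairs were found among the members. The gaps between their gene models ranged from 218 bases for H2BC4 and H2AC6 to 330 for H2BC12 and H2AC12. A model edge need not be the transcription start. In 2 pairs both genes were called higher: H2BC4 with H2AC6, and H2BC11 with H2AC11, whose models are 291 bases apart. In 2 pairs only the H2B gene was measured above the filter and called. H2BC12 went from 112 to 191 FPKM in mean while H2AC12, across 330 bases, was at 0.972 and 0.699. H2BC21 went from 2.15 to 4.67 while H2AC20, across 322 bases, was at 0.709 and 0.597. Of these 4 genes, H2BC21 alone has an annotated poly(A) signal, and H2BC12, H2AC12 and H2AC20 have none. In the remaining 4 pairs (H2BC8 with H2AC8, H2BC13 with H2AC13, H2BC14 with H2AC14 and H2BC17 with H2AC17) no gene was called.

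**Figure D5:**
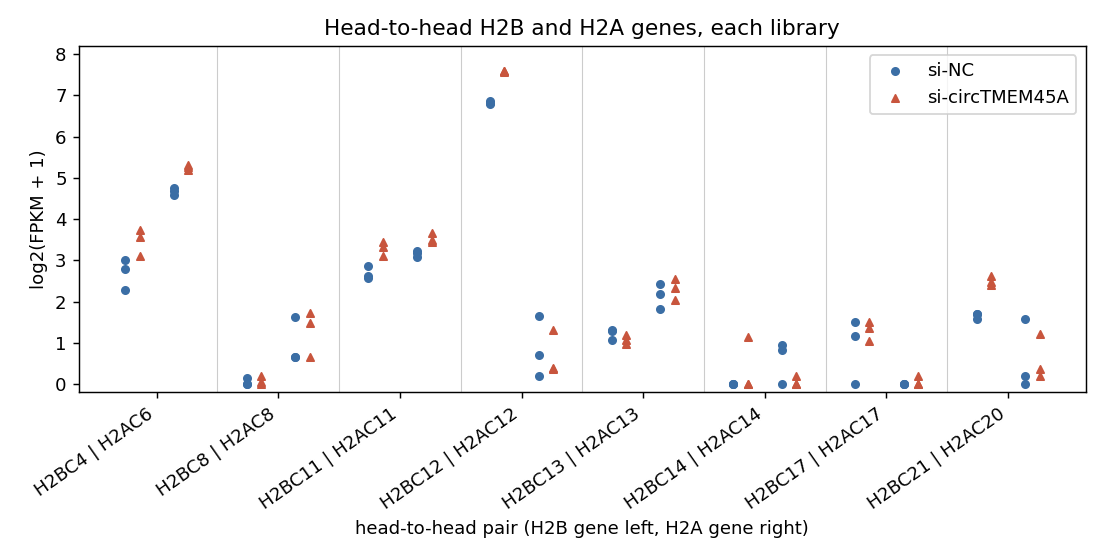
log2(FPKM + 1) of both genes of each of the 8 head-to-head pairs in each library, the H2B gene on the left and the H2A gene on the right of each panel; circles are si-NC and triangles si-circTMEM45A. In H2BC4 with H2AC6 and H2BC11 with H2AC11 the triangles lie above the circles for both genes, and in H2BC12 with H2AC12 and H2BC21 with H2AC20 only for the H2B gene.

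The octamer ATTTGCAT, the word bound by POU2F1, lies in the promoter window of at least 1 gene in 7 of these 8 pairs and of neither gene in H2BC13 with H2AC13. Both called and nearly silent H2B genes have it. Sequences from RefSeq (GRCh38.p14) were at hand for 45 of the 49 listed genes, each covering 250 bases before to 50 after the start. The octamer, searched on both strands, occurs in 492 of 27305 promoters (1.8%), in 12 of 15 H2B and 8 of 10 H2A entries, in 1 of 6 H3 entries and in none of the 4 H1 or 10 H4 entries. Windows of a head-to-head pair overlap, so 1 octamer can count for both genes. The sequences shown run from 20 bases before the octamer, in capitals, to the transcription start. The first 3 belong to called genes.
H2BC12 at chr6:27146859-27146924, minus strand: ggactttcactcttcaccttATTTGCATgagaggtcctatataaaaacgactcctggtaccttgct
H2BC11 at chr6:27132796-27132862, minus strand: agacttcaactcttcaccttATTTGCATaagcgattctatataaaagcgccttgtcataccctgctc
H2BC21 at chr1:149886683-149886748, minus strand: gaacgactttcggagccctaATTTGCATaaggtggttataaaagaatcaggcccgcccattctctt
H2BC8 at chr6:26216689-26216756, minus strand: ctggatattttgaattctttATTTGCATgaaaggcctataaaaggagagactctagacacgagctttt
H2BC14 at chr6:27814954-27815021, plus strand: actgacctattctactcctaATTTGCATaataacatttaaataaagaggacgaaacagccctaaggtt

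H2BC8 held 0 to 4 reads in each library, and H2BC14 held 8 reads in si-circTMEM45A replicate 3 and 0 in the rest, with the octamer at 48 bases before the start in both. In H2BC12 and H2BC21 it lies 46 bases and in H2BC11 47 bases before it. The octamer was present in 6 of 10 called genes, in 9 of 21 tested genes and in 11 of the 21 genes below the filter that had an entry. CCAAT occurs in all H1, H2A, H2B and H3 entries, in 2 of 10 H4 entries and in 35.7% of all promoters. AAACACA, an element of H1 promoters, occurs in 4 of 4 H1 entries, in 1 of 10 H2A entries, in none of the other classes and in 5.76% of all promoters. Such matches describe the sequence and do not show that a factor was bound.

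Genes that act in the histone pathway were read from lists taken as a whole, with counts set beside 11.1% of tested genes called higher and 7.64% lower. Those shares belong to the main limma fit. Counts by voom stand beside 1958 of 12676 genes called higher and 1411 lower by voom. Of 21 tested genes for histone gene transcription and S phase cyclins, limma called 0 higher (1 at an unadjusted p under 0.05, 0 by voom) and 3 lower (4 by voom). NPAT, the coactivator of histone genes, was at 4.97 ± 0.16 FPKM with si-NC (SD, n = 3) and 3.91 ± 0.14 with si-circTMEM45A (-0.28 ± 0.05, adjusted p = 0.0138), a call lost without si-NC replicate 1 (adjusted p = 0.0502). POU2F1, the octamer-binding factor, was at 3.78 and 3.08 in mean, and its call was lost whichever library was left out (adjusted p 0.0646 to 0.122). LDHA, a glycolytic enzyme also described in the OCA-S coactivator of H2B genes, went from 153 to 118 FPKM in mean.

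Of 22 tested genes for 3′ end processing and turnover of histone mRNA, limma called 0 higher (1 at an unadjusted p under 0.05 and 1 by voom) and 2 lower (3 by voom). SLBP, the stem-loop binding protein, was at 29.6 ± 1.49 FPKM with si-NC (SD, n = 3) and 29.1 ± 0.42 with si-circTMEM45A, a change of -0.02 ± 0.04 (adjusted p = 0.802). The 2 lower genes were CASP8AP2 (4.80 to 3.88 FPKM in mean), whose protein FLASH binds the U7 complex, and NCBP2 (24.4 to 21.1), a cap-binding subunit. Leaving out any library but si-NC replicate 3 ended the CASP8AP2 call (adjusted p 0.0563 to 0.102), and leaving out any but si-circTMEM45A replicate 1 ended that of NCBP2 (0.0756 to 0.125). By voom alone, LSM11, also of the U7 complex, was called lower (3.21 and 2.44 FPKM in mean) and TUT7, which adds uridines to histone mRNA, higher (10.7 and 12.1). Both are named after their values were seen. Of 15 genes for ordinary cleavage and polyadenylation, CLP1 was called higher (6.50 to 7.77 FPKM in mean; lost without si-circTMEM45A replicate 3, adjusted p = 0.0541) and NUDT21 lower (51.5 to 46.9; lost whichever library was left out, adjusted p 0.0511 to 0.141).

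In the list of variant and replication-independent histones, whose mRNAs mostly carry poly(A) tails, 2 of 11 tested genes were called higher and 3 lower. H2AJ, an H2A variant, went from 14.2 ± 0.67 to 20.8 ± 1.13 FPKM (SD, n = 3), a change of 0.52 ± 0.05 (adjusted p = 0.00193). H4C16 went from 1.14 to 1.73 FPKM in mean, and its call was lost whichever library was left out (adjusted p 0.0804 to 0.135). This gene stood on the list although its symbol is of the same series as the replication-dependent H4 members, so its call is not that of a variant. Of the lower genes, H2AZ2 fell from 51.4 to 43.4 FPKM in mean, and H3-3B, which encodes H3.3, from 65.7 to 56.9. A further list held other replication-dependent histone genes outside the 49, and 4 of its entries were tested. H3C6 was called higher (1.72 ± 0.19 to 3.95 ± 0.32 FPKM, 0.87 ± 0.08, adjusted p = 0.00161) and 3 were not called. Those 3 included H2BC19P and H2BC20P, whose symbols are those of pseudogenes, so they are not 3 further histone genes of the same kind.

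Of 23 tested histone chaperones and assembly factors, which carry histones to DNA, 3 were called higher and 2 lower. DNAJC9, a chaperone of H3 and H4, fell from 9.92 ± 0.41 to 5.97 ± 0.46 FPKM (SD, n = 3), a change of -0.65 ± 0.06 (adjusted p = 0.00151). NASP, which holds soluble H3 and H4, fell from 20.1 to 16.6 FPKM in mean. CABIN1 and UBN1, subunits of the HIRA complex that deposits H3.3, went from 14.2 to 17.1 and from 12.9 to 14.7, and SUPT16H, a FACT subunit, from 49.8 to 54.6. UBN1 stayed called only when the library left out was si-circTMEM45A replicate 1 (otherwise adjusted p 0.052 to 0.0735), and SUPT16H lost its call whichever was left out (0.0549 to 0.127).

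Genes of DNA replication, listed as a reading of S phase, had a median change of -0.08 over 31 tested genes, with 1 called higher and 2 lower (1 and 7 by voom). RRM2, a subunit of ribonucleotide reductase, went from 12.9 to 15.7 FPKM in mean, a call that held only when the library left out was si-NC replicate 1 (otherwise adjusted p 0.0566 to 0.0867). MCM3, part of the replicative helicase, fell from 121 ± 3.24 to 90.6 ± 4.63 FPKM (SD, n = 3), a change of -0.41 ± 0.05 (adjusted p = 0.0023). MCM2 went from 35.8 to 31.6, a call that held only when it was si-circTMEM45A replicate 2 (otherwise 0.0503 to 0.0993). The difference between this list and the histone genes was not tested.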

How the data were processed

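The authors deposited FPKM per Ensembl gene for 6 poly(A)-selected libraries. The submitters' processing notes name GRCh38, HTSeq, StringTie 2.1.6, TopHat2, HISAT2 2.2.1 and cutadapt 1.9. What each did, which annotation release and which strand setting were used is not given in the sources used here. Per the labels' protocols, the kit marked strand. Symbols came from a names table, or the GENCODE 29 name for 2 members (H3C2 and H2AC18).

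FPKM times GENCODE 29 gene model length gave whole reads for 100% of values (tolerance 0.001). A log-scale test was the main one because the unit is FPKM: limma 3.58.1 in R 4.3.3 on log2(FPKM + 1) with a mean-variance trend, two-sided, Benjamini-Hochberg over all 12676 tested genes. The fit was tested on simulated data. Python 3.11.15 and matplotlib 3.10.9 were also used.

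The histone genes and the other lists were chosen with earlier results of these data known. All tested histone genes are named, those below the filter where a group mean reached 10 reads, and of other lists the called genes, SLBP and NPAT. Members share sequence and are not replicates. The alternatives are listed under how the results depend on the processing. The values of 1 gene of the other lists are not reported here.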

Additional observations from a re-analysis of the deposited data

How the results depend on the processing

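Of 19 alternatives, 2 were added after the values were seen (limma voom with a mean of at least 10 reads, and leaving out both libraries numbered 1). No histone gene was called lower in any. H1-2, H2AC6, H2BC5, H2BC11, H2BC12 and H2BC21 were called higher in each alternative that tested them. Histone genes called higher numbered 6 of 45 with no filter and 7 to 9 of 21 when 1 library was left out. All called genes numbered 1254 with no filter, 1047 without both libraries numbered 1, and 1341 to 1945 when 1 library was left out. Calls split into 1411 higher and 969 lower (59.3% higher), but 1021 and 1237 with median-of-ratios scaling (45.2%) and 1122 and 1169 with quantile normalization (49.0%), where 9 histone genes were called higher. The 1q21 median was 1.08 with pseudocount 0.1, 0.96 with 0.5, 1.02 with TPM, 1.11 with voom, 1.32 with voom at 10 reads (2 genes), 0.29 with no filter and 0.74 without both libraries numbered 1; no 1q21 gene reached 5 FPKM in 3 libraries. The H2B median was 0.77 with pseudocount 0.1, with FPKM of at least 5 and with voom, 0.76 with TPM, 0.73 with voom at 10 reads, 0.33 with no filter and 0.53 to 0.72 when 1 library was left out. With no filter the 6p22 median was 0.18 and that of H2A 0.066. When 1 library was left out, the change of H3C2 ran from -0.52 to 0.067 (above 0 without si-NC replicate 1), that of H2BC17 from -0.041 (without si-NC replicate 2) to 0.72, and that of SLBP from -0.060 to 0.0038 (above 0 without si-NC replicate 3). H3C2 was at 0.13 without both libraries numbered 1. The cause of these shifts was not tested.

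Deviations from the group mean correlated at 0.0256, 0.0114 and 0.0471 between libraries of the same number, for numbers 1 to 3. Between libraries of different numbers the correlations ran from -0.0458 to 0.0184, and si-NC replicate 2 correlated best with si-circTMEM45A replicate 1 (0.0184). All of these are small, so they do not show whether the replicate numbers pair the libraries. With the number as a replicate block, 1000 genes were called higher and 720 lower, and 8 histone genes higher; H2BC4 and H4C9 were the ones lost. Low reads limit the 24 genes below the filter, of which 15 had at most 10 reads in every library.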
